A study of Heterocephalus glaber and Mus musculus with 9 samples.

Results

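Of the 12946 genes listed in the spleen table of naked mole-rats (NM-Rs) and mice, 43 were taken as the antioxidant and glutathione genes. They are the rows whose symbols begin with Gpx, Prdx or Sod and a digit, with Gst and a class letter, or with Txn, Glrx or Msr, together with Cat, Gclc, Gclm, Gss, Gsr, Nfe2l2 and Keap1. The rule reads symbols and no measured value. Nqo1 and Srxn1 are not listed in the table, nor are 23 further symbols of these families, among them Prdx1, Prdx3, Prdx6, Sod2, Gstm1, Gstp1, Msrb1 and Txnip, and these were not analysed here. The prefixes also bring in Msr1, which is the macrophage scavenger receptor and no reductase, and Txnl4b, whose product is related to a splicing protein, and both are counted among the 43. Msr1 is described on its own and Txnl4b with the other thioredoxin-fold proteins.

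Spleen RNA came from 9 healthy animals with 1 library each. The 3 mice were wild-type C57Bl/6N males of 2 months kept at about 22 °C. The 3 NM-Rs with small spleens (ssNM-R 2, 3 and 6) were males of 30, 26 and 23 months, and the 3 NM-Rs with enlarged spleens (lsNM-R 1, 4 and 5) were 24, 29 and 23 months old, lsNM-R 4 being the one female. NM-Rs were kept at 29 °C, no animal was treated, and all NM-Rs carry the strain label African naked mole-rat. Species, age, housing, genome and gene models differ together between mice and NM-Rs, so their parts in any difference between the species cannot be told apart. Values are normalized counts, that is reads of a gene over the size factor of its library, with no scaling for gene length. Libraries held between 7815326 and 18387599 reads, and 40 of the 43 genes had at least 20 reads in every library, the exceptions being Gpx6, Gstm2 and Gstm4.

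Cells remove hydrogen peroxide and lipid peroxides by catalase, by glutathione peroxidases and by peroxiredoxins, after superoxide dismutases have turned superoxide into peroxide. Glutathione peroxidases draw electrons from glutathione, which is made by glutamate-cysteine ligase (subunits Gclc and Gclm) and glutathione synthetase (Gss) and is recycled by glutathione reductase (Gsr). Peroxiredoxins and methionine sulfoxide reductases draw on thioredoxin and thioredoxin reductase, and the transcription factor NRF2 (Nfe2l2), held down by KEAP1, drives many of these genes. Red blood cells and their precursors, which the spleen makes and removes in rodents, are rich in catalase and peroxiredoxin 2. RNA was measured here, not protein or enzyme activity.

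The residue that does the chemistry in glutathione peroxidases and thioredoxin reductases can be read from the mouse transcripts. In some of these enzymes the active-site codon is TGA, a stop codon elsewhere that is here read as selenocysteine, and in others it is a cysteine codon. The coding sequences around this codon in mm9 are shown for all 6 glutathione peroxidases and both thioredoxin reductases in the table, since the codon sets the selenium enzymes among them apart, with the codon in capitals and 5′ to 3′ on the gene's own strand. The Gpx1 window lies at chr9:108241761-108241805 (plus strand, exon 1), that of Gpx3 at chr11:54720737-54720781 (plus strand, exon 2), that of Gpx4 at chr10:79517461-79517505 (plus strand, exon 3) and that of Gpx7 at chr4:108076014-108076058 (minus strand, exon 2). Gpx6 was read at chr13:21405625-21405669 (plus strand, exon 2), Gpx8 at chr13:113835848-113835892 (minus strand, exon 2), Txnrd1 at chr10:82358761-82358790 (plus strand, exon 15 of 15) and Txnrd2 at chr16:18477844-18477873 (plus strand, exon 17 of 18).
Gpx1: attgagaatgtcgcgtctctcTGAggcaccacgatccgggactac
Gpx3: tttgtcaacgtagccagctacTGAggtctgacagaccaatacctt
Gpx4: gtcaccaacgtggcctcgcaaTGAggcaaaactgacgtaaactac
Gpx6: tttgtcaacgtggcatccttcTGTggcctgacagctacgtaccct
Gpx7: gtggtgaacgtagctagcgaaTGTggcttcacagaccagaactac
Gpx8: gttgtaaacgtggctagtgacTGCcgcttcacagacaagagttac
Txnrd1: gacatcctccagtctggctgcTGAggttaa
Txnrd2: gagcctactgtgactggttgcTGAggctaa
In Gpx1, Gpx3, Gpx4, Txnrd1 and Txnrd2 the codon is TGA, whereas Gpx6 and Gpx7 carry TGT and Gpx8 carries TGC. In both thioredoxin reductases the codon is the last but one before the true stop. The sequences are those of the mouse and say nothing of the NM-R genes.

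In NM-R spleens 20 of the 43 genes were higher than in mice and 16 were lower, and 7 did not pass the test (limma on log2(normalized count + 1), 6 against 3 spleens, adjusted p under 0.05 over all genes). These are 46.5% and 37.2% of the members, beside 39.7% and 38.8% of all genes, so the share lower was near that of the whole table and the share higher somewhat above it. The median log2 fold change of the members was 0.24, beside 0.0097 over all genes. It was -0.0066 for ssNM-Rs alone and 0.21 for lsNM-Rs alone, beside 0.022 and 0.0073. Leaving out 1 spleen put the NM-R median between 0.077 (without mouse 1) and 0.31 (without ssNM-R 3). With a filter on a mean of at least 10 it was 0.11, so its size rests on the setting. Of the 43 genes, 13 passed as over 2-fold higher (30.2%, beside 26.2% of all genes) and 7 as over 2-fold lower (16.3%, beside 25.9%). In whole tissue, fewer cells of a type and less RNA per cell cannot be told apart.

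Both cohorts were also compared with the same mice on their own. In ssNM-Rs 20 members were higher and 15 lower than in mice, beside 38.0% and 37.5% of all genes. In lsNM-Rs 18 were higher and 14 lower, beside 38.1% and 37.0%. Both comparisons share the mice.

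**Figure D1:**
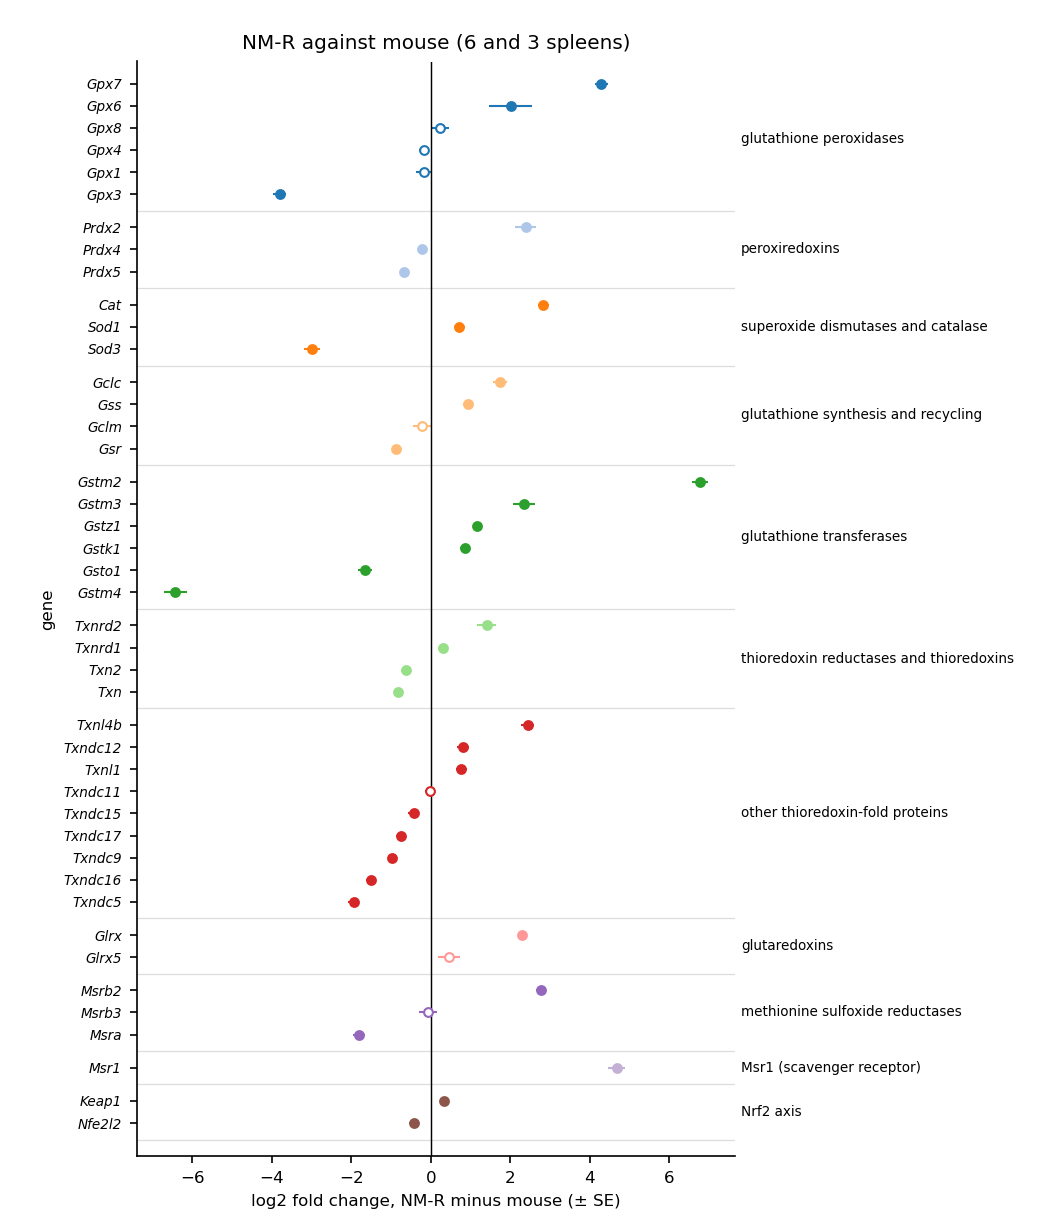
Log2 fold change of each of the 43 genes, NM-R minus mouse, with its standard error (limma, 6 and 3 spleens), grouped by class. Filled points passed an adjusted p of 0.05 and open points did not. Gstm2 at 6.77 and Gstm4 at -6.43 lie at the ends, and most classes hold members on both sides of 0.

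Catalase (Cat), the haem enzyme that splits hydrogen peroxide into water and oxygen, was 7.11-fold higher in NM-Rs. The spleens of mice 1, 2 and 3 held 2867, 3308 and 3682 normalized counts of Cat, those of ssNM-Rs 2, 3 and 6 held 25289, 20864 and 21988, and those of lsNM-Rs 1, 4 and 5 held 25273, 26642 and 20201. Every NM-R was above every mouse (log2 fold change 2.83 ± 0.13, adjusted p = 4.3e-08). All values by spleen are given in this order. Sod1, the cytosolic copper and zinc superoxide dismutase, was 1.67-fold higher, with a mean of 3418 ± 462 (SD, n = 3) for the mice and 5716 ± 1212 (n = 6) for the NM-Rs (log2 fold change 0.72 ± 0.15, adjusted p = 0.00121). Sod3, the secreted superoxide dismutase, went the other way and was 7.71-fold lower. It measured 1116, 1009 and 1106 in the mice, 84.8, 99.1 and 164 in ssNM-Rs and 191, 145 and 154 in lsNM-Rs (log2 fold change -2.99 ± 0.19, adjusted p = 3.37e-07), without overlap between the species.

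Among the 6 glutathione peroxidases, Gpx7 rose, Gpx3 fell, and Gpx1, the highest of them per kilobase in mice, did not pass the test. Gpx6 passed as higher on few reads, and Gpx4 and Gpx8 did not pass. Gpx3, the secreted plasma enzyme that carries selenocysteine, stood at 2816, 3800.1 and 3124 in mice, at 148, 134 and 230.0 in ssNM-Rs and at 323, 338 and 301 in lsNM-Rs. The NM-R mean was 13.2-fold below that of mice (log2 fold change -3.80 ± 0.17, adjusted p = 2.99e-08). Gpx7, the peroxidase of the endoplasmic reticulum with the cysteine codon shown above, counted 31.1, 42.4 and 28.3 in mice against 569, 737 and 753 in ssNM-Rs and 643, 591 and 771 in lsNM-Rs, a 20-fold difference (log2 fold change 4.29 ± 0.16, adjusted p = 1.12e-08). Gpx3 and Sod3, whose products are both secreted, were thus lower in every NM-R than in any mouse.

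Gpx1, the cytosolic selenoenzyme, spread over 7958, 12464 and 16718 in the mice and lay in the narrow range of 10622, 10506 and 10887 in ssNM-Rs and 10152, 10869.8 and 9642 in lsNM-Rs, inside the mouse range (log2 fold change -0.18 ± 0.20, adjusted p = 0.41). Without mouse 1, whose value was the lowest, its log2 fold change was -0.47 with a limma adjusted p of 0.0113, and without mouse 3 it was 0.0676 (adjusted p = 0.731). Gpx4, which reduces lipid peroxides in membranes, was 1967 ± 262 in mice and 1759.9 ± 244 in NM-Rs, and Gpx8 was 83.1 ± 10.7 and 99.9 ± 24.7, and neither passed (adjusted p = 0.276 and 0.341). Gpx6 had no read in the mice and 24 reads over the 6 NM-R libraries, with 0 in lsNM-R 4. Set against a floor of 3 reads over the mouse group, the 24 NM-R reads gave a 3.43-fold ratio, with their own counting error left out. Gpx6 passed as higher in NM-Rs (limma adjusted p = 0.00584) and in ssNM-Rs alone (adjusted p = 0.00325), but not in lsNM-Rs alone (adjusted p = 0.0587). Its level was close to the limit of detection.

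Of the 3 peroxiredoxins listed, Prdx2 rose and Prdx4 and Prdx5 fell. Prdx2, an abundant peroxide scavenger of red cells, measured 2744, 5683 and 7687 in mice, 31102, 27127 and 25357 in ssNM-Rs and 20957, 27660.0 and 23432 in lsNM-Rs, which is 4.83-fold higher in NM-Rs (log2 fold change 2.38 ± 0.27, adjusted p = 2.13e-05). Even mouse 3, the highest mouse, lay well below the lowest NM-R. Without mouse 1 the ratio was 3.88 (limma adjusted p = 1.56e-05). Prdx5, which is found in mitochondria, peroxisomes and cytosol, had 1089.7, 1113 and 1213 in mice, 702, 689 and 846 in ssNM-Rs and 688, 616 and 732 in lsNM-Rs (log2 fold change -0.68 ± 0.098, adjusted p = 0.000106). Prdx4 of the endoplasmic reticulum fell from 428 ± 21.4 to 369 ± 18.9, just inside the threshold (adjusted p = 0.0496). Its adjusted p was between 0.053 and 0.152 when any spleen other than lsNM-R 4 was left out, 0.29 with upper quartile scaling, 0.0787 with edgeR and 0.0557 with DESeq2, so the call rests on the setting.

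**Figure D2:**
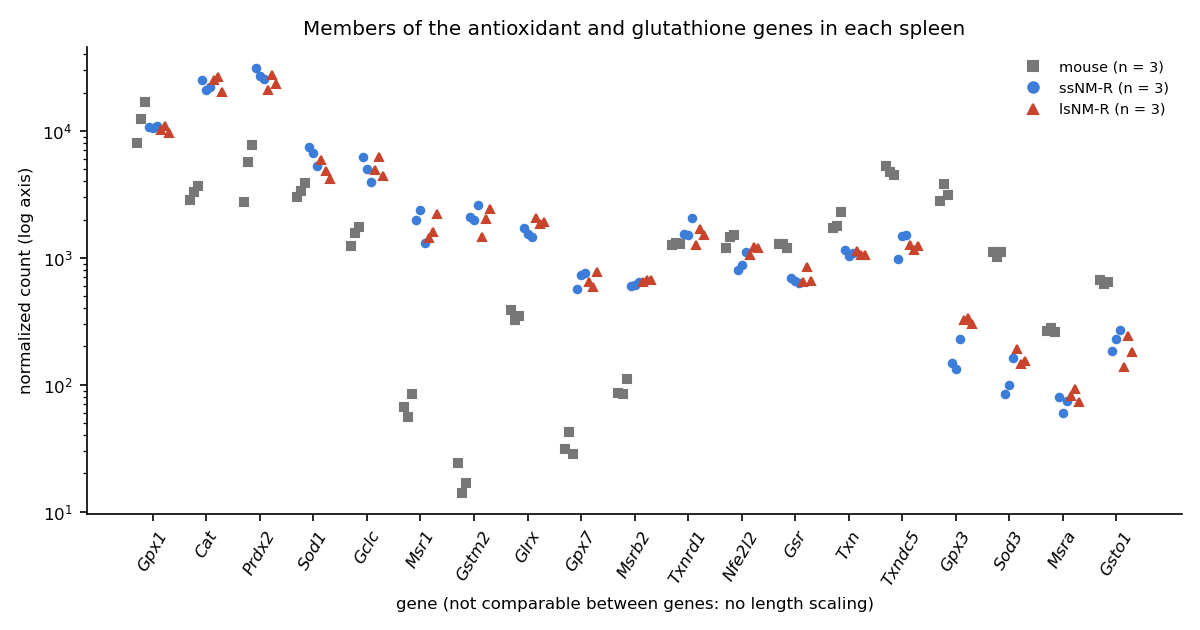
Normalized counts on a log axis of 19 of the 43 genes in each of the 9 spleens, with mice as grey squares, ssNM-Rs as blue circles and lsNM-Rs as red triangles. For Cat, Prdx2, Sod1, Gclc, Msr1, Gstm2, Glrx, Gpx7 and Msrb2 all NM-R points lie above the mice. For Gpx3, Sod3, Txndc5, Msra, Gsto1, Gsr and Txn they lie below the mice, and for Gpx1, Txnrd1 and Nfe2l2 the species overlap. Levels of different genes are not comparable, since they are not divided by length.

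Glutathione synthesis genes were higher in NM-Rs for the catalytic subunit and the second enzyme, not for the modifier subunit, and the recycling enzyme was lower. Gclc, the catalytic subunit of glutamate-cysteine ligase, counted 1242, 1579 and 1745 in mice, 6255, 4996 and 3964 in ssNM-Rs and 4921, 6174 and 4440.3 in lsNM-Rs (3.37-fold, log2 fold change 1.75 ± 0.17, adjusted p = 5.73e-06). Gclm, its modifier subunit, counted 945, 1559.8 and 1940.1 in mice, 1506, 1192 and 906 in ssNM-Rs and 1443, 1235 and 1107 in lsNM-Rs, so that the species overlapped (log2 fold change -0.22 ± 0.23, adjusted p = 0.378). Without mouse 1 it passed as lower (log2 fold change -0.52, limma adjusted p = 0.0376), and without mouse 3 the difference was 0.000342.

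Gss, which adds glycine to complete glutathione, rose 1.93-fold, from 227, 229 and 223 in mice to 459, 449 and 425 in ssNM-Rs and 521, 384 and 378 in lsNM-Rs (log2 fold change 0.93 ± 0.12, adjusted p = 4.33e-05). Gsr, the reductase that returns oxidized glutathione to its reduced form, was 1.83-fold lower. Its values were 1285, 1295 and 1191 in mice, 689, 652 and 628 in ssNM-Rs and 644, 851 and 651 in lsNM-Rs (log2 fold change -0.88 ± 0.10, adjusted p = 2.48e-05). No NM-R reached the mice, and lsNM-R 4 lay above the other 5 NM-Rs.

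All 6 glutathione transferases passed, 4 of them higher and 2 lower in NM-Rs, beside 39.7% of all genes higher and 38.8% lower. These enzymes couple glutathione to electrophiles, and the mu class (Gstm) is a cluster of similar genes. Gstm2 showed the highest fold change of the 43 genes, from 24.1, 14.1 and 16.8 in mice to 2092, 1988 and 2604 in ssNM-Rs and 1456, 2018 and 2423 in lsNM-Rs (114-fold, log2 fold change 6.77 ± 0.20, adjusted p = 2.11e-09), the mouse values resting on 13 to 24 reads. Gstm4 was the lowest, with 104, 90.2 and 83.9 in mice and 0 in all NM-Rs except lsNM-R 5, which held 1 read. From 267 mouse reads and 1 NM-R read the mouse level was at least 111-fold that of NM-Rs (limma adjusted p = 3.1e-08). This is the lower end of an exact 95% interval of 111 to 24712 around 623, which covers counting error only. Gstm3 was 4.86-fold higher, the means being 205 ± 92.8 for mice and 998 ± 233 for NM-Rs (log2 fold change 2.35 ± 0.28, adjusted p = 2.48e-05).

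The 3 mu-class genes lie close to each other in mm9, Gstm3 at chr3:107745251-107772201, Gstm2 at chr3:107784620-107789371 and Gstm4 at chr3:107843326-107847812, all on the minus strand. Their coding sequences of 657 bases were identical at 84.8% of bases between Gstm2 and Gstm3, at 82.6% between Gstm2 and Gstm4 and at 79.1% between Gstm3 and Gstm4. Gstm1, which is not listed in the table, shares 89.5% with Gstm3. NM-R genes carry the name of a mouse homologue, and within such a family that name may fall on another copy, so the differences of Gstm2, Gstm3 and Gstm4 are uncertain as to which gene they belong to. Gstk1, the mitochondrial and peroxisomal kappa enzyme, and Gstz1, which acts in tyrosine breakdown, were 1.83-fold and 2.27-fold higher (adjusted p = 0.000186 and 2.1e-06). Gsto1, an omega-class enzyme with thioltransferase activity, fell from 641 ± 24.0 to 207 ± 48.3, 3.1-fold (adjusted p = 1.47e-05).

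In the thioredoxin system both thioredoxins were lower in NM-Rs and both thioredoxin reductases passed as higher. Txn, the cytosolic thioredoxin, measured 1701, 1783 and 2296 in mice, 1156, 1037 and 1084 in ssNM-Rs and 1120.0, 1053 and 1042 in lsNM-Rs (1.78-fold lower, log2 fold change -0.82 ± 0.10, adjusted p = 4.09e-05). The mitochondrial Txn2 was 1458 ± 206 in mice and 947 ± 131 in NM-Rs (adjusted p = 0.00102). Txnrd2, the mitochondrial reductase, counted 415, 697 and 976 in mice, 2345, 1772 and 1535 in ssNM-Rs and 1633, 1886 and 1409 in lsNM-Rs (2.53-fold, log2 fold change 1.40 ± 0.24, adjusted p = 0.000384). The cytosolic Txnrd1 differed little, with 1254, 1298 and 1281 in mice, 1530.2, 1507 and 2051 in ssNM-Rs and 1258, 1685 and 1522 in lsNM-Rs (log2 fold change 0.30 ± 0.12, adjusted p = 0.0461). Leaving out any mouse, ssNM-R 6, lsNM-R 4 or lsNM-R 5 brought the adjusted p of Txnrd1 to between 0.0595 and 0.114, and scaling to the same total to 0.106.

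Of the 9 other thioredoxin-fold proteins 3 were higher and 5 lower, beside 39.7% and 38.8% of all genes. Txndc5, a disulfide isomerase of the endoplasmic reticulum that is abundant in antibody-secreting cells, had the lowest fold change of the class. It stood at 5260.0, 4736 and 4493 in mice, 979, 1474 and 1521 in ssNM-Rs and 1263, 1157 and 1242 in lsNM-Rs (3.79-fold lower, log2 fold change -1.94 ± 0.14, adjusted p = 6.35e-07). Txndc16, Txndc9, Txndc17 and Txndc15 were 2.85, 1.95, 1.67 and 1.34-fold lower. Txndc15 had an adjusted p of 0.0177, and of 0.0613 without mouse 2 and 0.0538 without mouse 3, and of 0.0733 with upper quartile scaling. Txnl1, a thioredoxin-like protein that binds the proteasome, and Txndc12 of the endoplasmic reticulum were 1.67-fold and 1.78-fold higher (adjusted p = 0.000599 and 0.000943), and Txndc11 was 1138 ± 115 and 1126 ± 157 (adjusted p = 0.883). Txnl4b rose from 106, 132 and 132 in mice to 775, 572 and 653 in ssNM-Rs and 586, 906 and 577 in lsNM-Rs (5.5-fold, log2 fold change 2.43 ± 0.17, adjusted p = 5.41e-07).

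Glrx, the cytosolic glutaredoxin that removes glutathione from protein thiols, was 4.94-fold higher in NM-Rs. Mice held 390.3, 325 and 349, ssNM-Rs 1719, 1539 and 1452 and lsNM-Rs 2056, 1852 and 1907 (log2 fold change 2.30 ± 0.091, adjusted p = 1.43e-08). Glrx5, a mitochondrial protein that serves iron-sulfur cluster assembly and is needed for haem synthesis in red cell precursors, read 553, 1042 and 1473 in mice, 1039, 862 and 901 in ssNM-Rs and 1876, 2289.6 and 1425 in lsNM-Rs. The species difference of Glrx5 did not pass (log2 fold change 0.46 ± 0.27, adjusted p = 0.138), although it did without mouse 3 (log2 fold change 0.78, limma adjusted p = 0.0201). Without mouse 1, the lowest mouse, the log2 fold change was 0.0745 (limma adjusted p = 0.742). Against the same mice it passed in lsNM-Rs alone (log2 fold change 0.95 ± 0.31, adjusted p = 0.018) and not in ssNM-Rs alone (log2 fold change -0.02 ± 0.31, adjusted p = 0.946).

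Methionine sulfoxide reductases repair oxidized methionine, MSRA acting on one stereoisomer and the MSRB enzymes on the other. Msrb2 of mitochondria counted 85.3, 84.8 and 111 in mice, 599, 609.5 and 641 in ssNM-Rs and 647, 672 and 665 in lsNM-Rs, and was 6.82-fold higher in NM-Rs (log2 fold change 2.77 ± 0.11, adjusted p = 1.47e-08). Msra had 263, 280.4 and 260.1 in mice, 80.7, 60.1 and 73.9 in ssNM-Rs and 81.9, 92.4 and 73.4 in lsNM-Rs, and was 3.48-fold lower (log2 fold change -1.80 ± 0.15, adjusted p = 1.83e-06). Msrb2 and Msra thus moved in opposite directions, and for Msrb3 the species overlapped, with 590.0, 487 and 395 in mice, 366, 387 and 612 in ssNM-Rs and 363, 490.1 and 635 in lsNM-Rs (log2 fold change -0.07 ± 0.22, adjusted p = 0.793).

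Msr1, the class A scavenger receptor of macrophages, rose 26.3-fold. It read 67.2, 55.4 and 84.9 in mice, 1976, 2363 and 1317 in ssNM-Rs and 1431, 1609 and 2209 in lsNM-Rs (log2 fold change 4.68 ± 0.21, adjusted p = 3.25e-08). Of 10 macrophage markers in the table (of 13 listed), 4 were higher in NM-Rs, 5 were lower and 1 did not pass, none was at 0 in all mice, and their summed level was 48669 to 59088 in mice and 56388 to 84009.6 in NM-Rs. Marco, a receptor of the same class, was 2872 ± 304 in mice and 215 ± 77.5 in NM-Rs. The part of macrophage number in the Msr1 difference was not tested.

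The means of Nfe2l2 and Keap1 over all 6 NM-Rs differed from those of mice by less than 1.5-fold. Nfe2l2 measured 1203, 1467 and 1510.1 in mice, 794, 874 and 1100.2 in ssNM-Rs and 1052, 1223 and 1191 in lsNM-Rs, and was lower in NM-Rs (log2 fold change -0.43 ± 0.12, adjusted p = 0.00813), although lsNM-R 4 lay above mouse 1. Keap1, the adaptor that marks NRF2 for degradation, measured 1295, 1344 and 1340.2 in mice, 1979, 1922 and 1505 in ssNM-Rs and 1806, 1548 and 1399 in lsNM-Rs (log2 fold change 0.34 ± 0.11, adjusted p = 0.018). Without mouse 1 the limma adjusted p of Keap1 was 0.0572. In ssNM-Rs alone against mice both passed (adjusted p = 0.00307 and 0.012), in lsNM-Rs alone neither did (adjusted p = 0.112 and 0.107), and the cohorts were not called different.

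Sequence before the gene start was searched for letters that NRF2 and the erythroid GATA factors are known to bind. The core of the antioxidant response element, TGACNNNGC on either strand, lay in the 200 bases before the annotated start of 4 of the 43 genes (9.3%), beside 8.6% of 22233 mouse protein-coding genes. AGATAA, on either strand, lay in 5 (11.6%) beside 7.0%, and no match of one overlapped one of the other. The 4 genes with the first motif are printed below with it in capitals, 5′ to 3′ in the direction of the gene, because they include members that rose, fell and did not pass. They lie in mm9 at chr3:121948325-121948365 (plus), chr8:34762950-34762990 (plus), chr16:90220935-90220975 (plus) and chr16:11134842-11134882 (minus).
Gclm: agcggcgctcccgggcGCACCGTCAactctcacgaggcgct
Gsr: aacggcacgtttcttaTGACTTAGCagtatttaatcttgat
Sod1: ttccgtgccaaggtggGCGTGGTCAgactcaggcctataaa
Txndc11: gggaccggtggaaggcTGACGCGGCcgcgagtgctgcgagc
In Gclm and Sod1 the match is on the other strand and is printed as GC, any 3 bases and then GTCA. Sod1 was higher and Gsr lower in NM-Rs, and Gclm and Txndc11 did not pass. A match describes letters in a short window and is not a binding site.

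Erythroid markers moved with several of these genes among the mice. Summed over the 13 of 15 listed markers in the table, they reached 27560.2, 64762 and 81613 in mice 1, 2 and 3 and 190392 to 282491 in NM-Rs, each of the 13 was higher in NM-Rs, and none was at 0 in all mice. Gclm, Glrx5, Gpx1, Gstm3, Prdx2 and Txnrd2 were the 6 members (14.0%, beside 10.1% of all genes) that differed over 2-fold between the mice, and all 6 were lowest in mouse 1 and highest in mouse 3, an order that 33.5% of the 1309 such genes in the whole table had. They were picked out after their values were seen. Without mouse 1 the NM-R to mouse ratio of Prdx2 went from 4.83 to 3.88, that of Gstm3 from 4.86 to 3.98, and that of Txnrd2 from 2.53 to 2.11, and all 3 still passed. Gpx1 and Gclm passed as lower without mouse 1 (log2 fold change -0.47 and -0.52, limma adjusted p = 0.0113 and 0.0376). Glrx5 did not pass without it (log2 fold change 0.0745, limma adjusted p = 0.742). Cat was 6.69-fold higher without that mouse. The part of erythroid cells in these values was not tested.

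**Figure D3:**
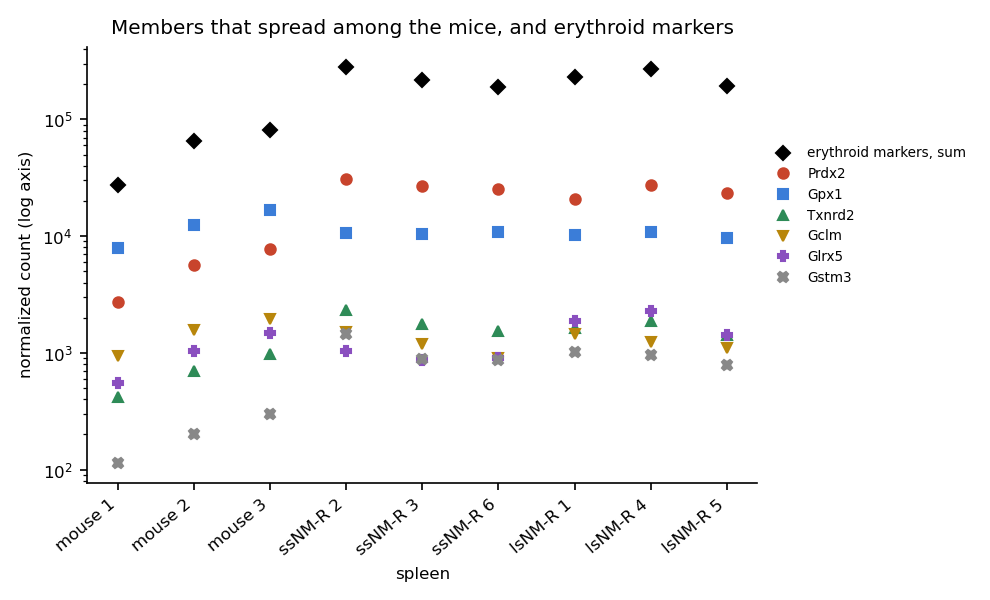
Normalized counts on a log axis, in each spleen, of the summed erythroid markers (black diamonds) and of the 6 members that differed over 2-fold between the mice. In the mice each of the 7 series is lowest in mouse 1 and highest in mouse 3, and in NM-Rs Gpx1 stays within 9642 to 10887.

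Other cell types differed between the species as well. Their counts, like those of the erythroid and macrophage markers above, stand beside 39.7% of all genes higher and 38.8% lower. All 7 granulocyte markers in the table (of 13 listed) were higher in NM-Rs, with sums of 6466 to 8200.0 in mice and 26018 to 44811 in NM-Rs, while all 8 B cell markers were lower (55893 to 56981 against 2678 to 7152), as were all 7 T cell markers (9778 to 10685 against 3115 to 5860.0). Of 4 megakaryocyte markers 3 were higher and 1 was lower (1839 to 2623 against 6569 to 12165), and of 5 smooth muscle markers 2 were higher and 1 was lower (6144 to 8046 against 15517 to 33116). Of 4 liver markers 1 was higher and 1 lower, and of 3 pancreas markers 2 were higher and 1 lower. Liver markers summed to 125 to 287 in mice and 79.3 to 2446 in NM-Rs, highest in ssNM-R 6, and pancreas markers to 364 to 497 and 134 to 230.2, with Cel at 0 in all mice and no other marker of these lists. Their part in the members' differences was not tested.

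Levels of different genes were compared within mice alone, per kilobase of annotated exon. Exons of all annotated transcripts of a gene were merged, so this length can exceed that of a single transcript and lower the value. It was 3050 bases for Prdx2 and 646 for Sod1, and the order below depends on it. Gpx1 came first at 14617 ± 5172 normalized counts per kb (SD, n = 3), above Sod1 at 5290.4 ± 716. Txn at 1833 ± 307, Gpx3 at 1791 ± 278 and Prdx2 at 1761 ± 815 followed and did not differ beyond their spread, and Cat was at 1257 ± 156 and Gpx4 at 1174 ± 156 per kb. Apart from Gpx6, which had no read, Gstm2 (10.9), Msr1 (17.2) and Gpx7 (26.3) were the lowest 3 in mice, and these 3 had the highest fold changes in NM-Rs. A fold change divides by the mouse level, so both orders share the mouse counts and a low mouse level favours a high fold. Lengths of the NM-R gene models were not used, and no such order is given for NM-Rs.

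Between lsNM-Rs and ssNM-Rs no member passed the test (limma, adjusted p under 0.05 over all genes), and no gene of the table did. Over all genes limma had 1138 at an unadjusted p under 0.05, edgeR called 0 and DESeq2 called 54. At an unadjusted limma p under 0.05 there were 6 of 43 members (14.0%), beside 8.79% of all genes, and edgeR gave 0 members at an adjusted and 4 at an unadjusted p under 0.05, beside 8.54% of all genes at the latter. The limma count of 6 fell to 3 without mouse 2 (beside 876 of all genes) and without ssNM-R 3 (beside 1070). It was also 3 with untrended variance (beside 1046) and with only the cohorts compared (beside 971). DESeq2 called 1 member, Gpx3, beside 0.417% of all genes, and DESeq2 on the NM-R spleens alone called 1 other, Glrx5, beside 0.108%. The cohorts did not overlap for 4 members, all higher in lsNM-Rs, beside 6.84% of all genes higher and 6.23% lower in lsNM-Rs. Those 4 were Gpx3, Glrx, Glrx5 and Msrb2. The standard error of the log2 difference had a median of 0.16 over the members.

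Gpx3 had the smallest p of the members, with every lsNM-R above every ssNM-R (323, 338 and 301 against 148, 134 and 230.0, log2 difference 0.95 ± 0.20, limma unadjusted p = 0.000748, adjusted p = 0.429). The DESeq2 adjusted p of Gpx3 was 0.0195, and over all settings the adjusted p lay between 0.0195 and 0.731. Glrx5 was 2.00-fold higher in lsNM-Rs (1876, 2289.6 and 1425 against 1039, 862 and 901, log2 difference 0.97 ± 0.31, limma unadjusted p = 0.0108, adjusted p = 0.452). Its adjusted p was 0.00149 with DESeq2 on the NM-R spleens alone, and ranged up to 0.731 over the settings. The summed erythroid markers were 230157, 271037 and 194885 in lsNM-Rs and 282491, 217469 and 190392 in ssNM-Rs. Their part in the Glrx5 values was not tested.

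Glrx was next (log2 difference 0.31 ± 0.11, limma unadjusted p = 0.0159), then Sod3 (log2 difference 0.54 ± 0.22, limma unadjusted p = 0.0377) and Nfe2l2 (log2 difference 0.33 ± 0.14, limma unadjusted p = 0.0397), all higher in lsNM-Rs with adjusted p of 0.488, 0.549 and 0.551. Sod1 was the sixth and was lower in lsNM-Rs, with 5899.6, 4810.5 and 4144 against 7412, 6709 and 5318 (log2 difference -0.39 ± 0.17, limma unadjusted p = 0.0463, adjusted p = 0.565). The secreted enzymes Gpx3 and Sod3 had thus their lowest values in ssNM-Rs 2 and 3, and Sod3 of ssNM-R 6 lay inside the range of lsNM-Rs. Cat, Gclc, Gpx7 and Gstm2, which were all higher in NM-Rs than in mice, had log2 differences between the cohorts of 0.08 ± 0.15, 0.04 ± 0.19, -0.04 ± 0.19 and -0.20 ± 0.23.

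**Figure D4:**
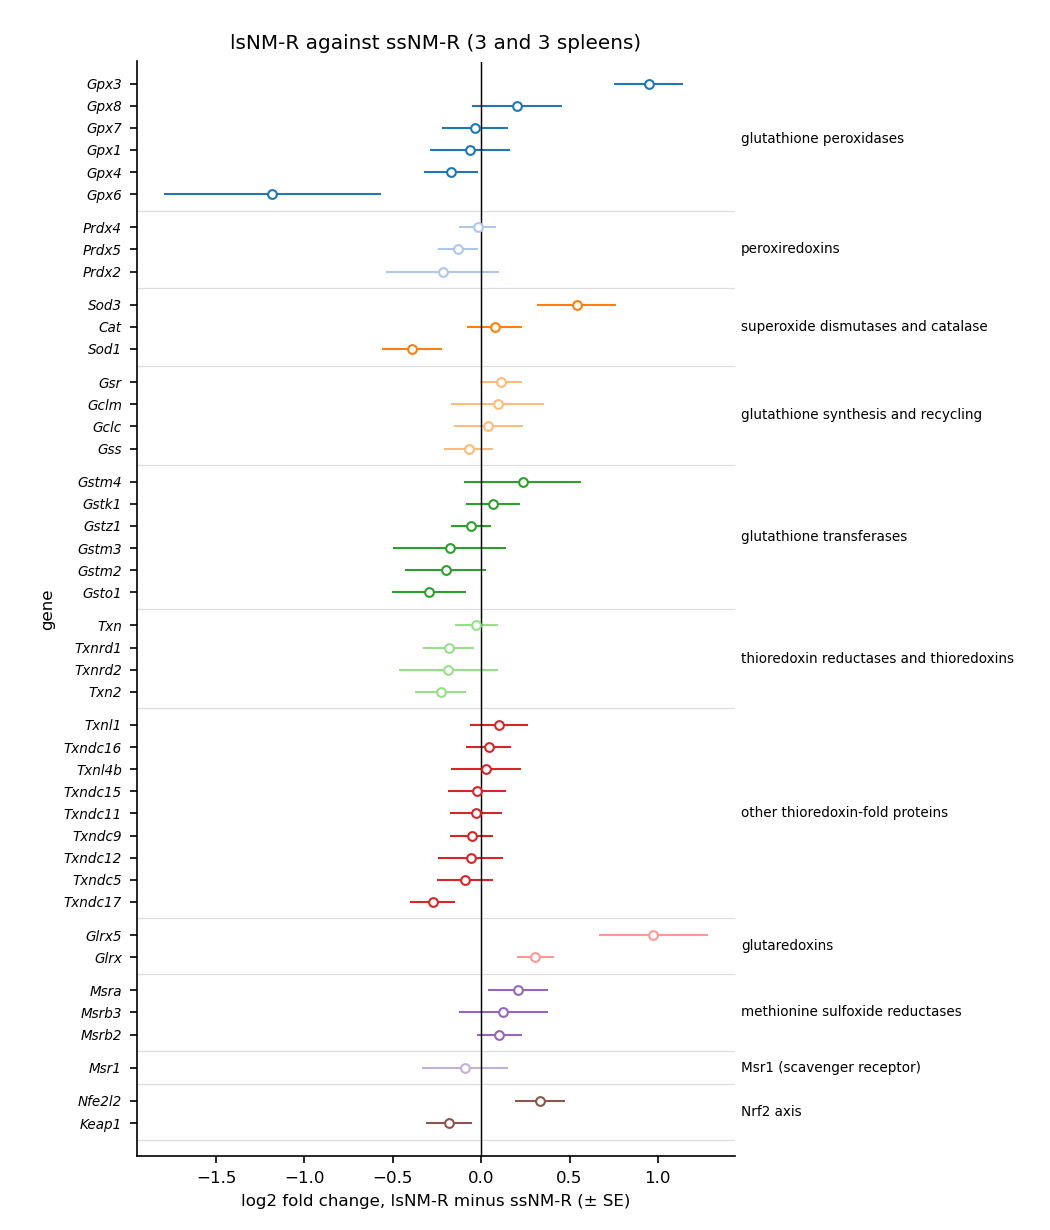
Log2 difference of each of the 43 genes, lsNM-R minus ssNM-R, with its standard error (limma, 3 and 3 spleens). All points are open because none passed an adjusted p of 0.05. Gpx3, Glrx5 and Sod3 lie farthest to the right, and Gpx6 at the far left rests on 24 reads.

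Library depth moved with some members inside the NM-Rs. ssNM-R 2, ssNM-R 3 and lsNM-R 1 held fewer than 10000000 reads each, and the other 3 NM-R libraries held 16883689 or more. For 9 members (20.9%, beside 14.8% of all genes) these sets did not overlap. Gpx4, Gss, Keap1, Sod1 and Txn2 were higher in the libraries with fewer reads, and Gpx8, Msrb3, Nfe2l2 and Txndc9 were higher in the deeper ones. Sod1 measured between 5900 and 7412 in the first set and between 4144 and 5318 in the second. With depth as a covariate the cohort difference of Nfe2l2 was 0.25 (limma adjusted p = 0.419) and that of Gpx3 was 0.85 (adjusted p = 0.178). Each set holds both cohorts, though just 1 spleen of one of them, and the part of depth in these values was not tested further.

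Around these enzymes, 98 of 129 further genes of the pathway were in the table, and 38 were higher and 40 lower in NM-Rs, with the same test as above. Over all genes 39.7% were higher and 38.8% lower, near the shares of these 98, and the counts of each list below are to be read against them. In NADPH supply, which feeds both reductases, 5 of 8 genes were higher and 2 lower (median log2 fold change 0.73, beside 0.0097 over all genes). Pgd of the pentose phosphate pathway was 1804 ± 49.7 in mice and 4267 ± 621 in NM-Rs, the mitochondrial Idh2 was 1087 ± 55.0 in mice and 2854 ± 492 in NM-Rs, and Mthfd1 of folate metabolism was 1271 ± 274 in mice and 9105 ± 1289 in NM-Rs. Pgls, the lactonase between the dehydrogenases of that pathway, was lower (1237 ± 63.3 in mice and 751 ± 90.8 in NM-Rs).

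Glutathione turnover and transport was split, with 9 of 21 genes higher and 8 lower (median -0.27). Slc7a11, the cystine importer, was 431 ± 33.8 in mice and 21.3 ± 6.3 in NM-Rs, and Dpep2, a membrane dipeptidase, was 123 ± 9.77 in mice and 1.02 ± 0.7 in NM-Rs. Glo1, the glutathione-dependent glyoxalase, was 771 ± 162 in mice and 3030.3 ± 373 in NM-Rs, Oplah, which opens 5-oxoproline to glutamate, was 186 ± 5.13 in mice and 946 ± 109 in NM-Rs, and the glutathione conjugate exporter Abcc1 was 1117 ± 92.5 in mice and 2289 ± 376 in NM-Rs. Slc7a11 was thus low in the NM-Rs in which Gclc, whose product joins cysteine to glutamate, was high.

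Of 19 further NRF2 regulators and targets, 10 were higher and 5 lower (median 0.41). Hmox1, the inducible haem oxygenase and a classical target, did not pass (10946 ± 1041 in mice and 9304 ± 908 in NM-Rs). Blvrb, a flavin and biliverdin reductase of red cells, was 3575 ± 1228 in mice and 16521 ± 3586 in NM-Rs, and Nfe2, the erythroid and megakaryocytic relative of NRF2, was 1104 ± 519.6 in mice and 9928 ± 1868 in NM-Rs. Bach1, a repressor at the same DNA element, was 1033 ± 54.6 in mice and 2267 ± 505 in NM-Rs, while Bach2, its relative in B cells, was 2279.7 ± 97.0 in mice and 71.9 ± 35.6 in NM-Rs, and the 8 B cell markers were lower too. The part of B cells in the Bach2 difference was not tested.

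For selenoprotein synthesis 3 of 8 genes were higher and 3 lower (median -0.10), and of 5 other selenoproteins 1 was higher and 3 were lower (median -1.19). Selenof and Selenos of the endoplasmic reticulum were 1842 ± 157 in mice and 627 ± 75.5 in NM-Rs, and 550.0 ± 18.1 in mice and 242 ± 17.4 in NM-Rs, respectively, and Selenoo of mitochondria was 552 ± 18.9 in mice and 1442 ± 171 in NM-Rs. Scly, which frees selenium from selenocysteine, was 657 ± 116 in mice and 294 ± 43.1 in NM-Rs. Of the selenocysteine members described above, Gpx1 and Gpx4 did not pass and Gpx3 fell. Txnrd2 was higher, and Txnrd1 passed as higher under some settings and not under others.

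Of 8 membrane glutathione transferases and related genes 2 were higher and 6 lower (median -0.92). Mgst3 rose (589.9 ± 366 in mice and 2965 ± 343 in NM-Rs), and Hpgds, the glutathione-dependent prostaglandin D synthase, fell (593 ± 109 in mice and 79.2 ± 18.3 in NM-Rs). Of 10 other antioxidant genes 2 were higher and 4 lower (median -0.21). Sesn1, a stress-induced sestrin, was 2528 ± 354 in mice and 541 ± 61.9 in NM-Rs, and Ccs, the copper chaperone of SOD1, did not pass (399 ± 16.6 in mice and 428 ± 53.3 in NM-Rs).

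Among 19 oxidant-producing genes 6 were higher and 9 lower (median -0.14). Cybb and Cyba, the membrane subunits of the phagocyte oxidase, were 4697 ± 510.1 in mice and 3455 ± 868 in NM-Rs, and 2804 ± 226 in mice and 1902 ± 157 in NM-Rs, and its cytosolic subunit Ncf1 was 3409.8 ± 80.7 in mice and 684 ± 109.8 in NM-Rs. Mpo, the granulocyte peroxidase that turns peroxide into hypochlorous acid, was 927 ± 116 in mice and 3976 ± 789.6 in NM-Rs, and Xdh, which makes superoxide and peroxide as it degrades purines, was 1212 ± 138 in mice and 5473 ± 591 in NM-Rs. Ero1b, an oxidase of the endoplasmic reticulum, was 1377 ± 59.7 in mice and 79.3 ± 22.7 in NM-Rs. None of these 98 genes passed between the cohorts.

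**Figure D5:**
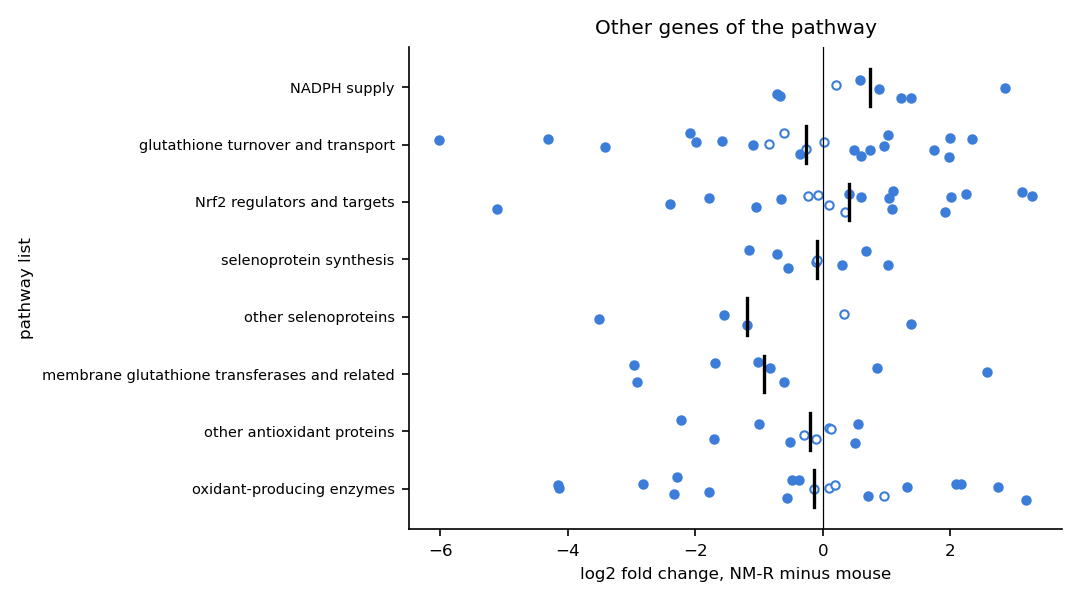
Log2 fold change, NM-R minus mouse, of the 98 further genes in 8 lists. Filled points passed an adjusted p of 0.05, open points did not, and black bars are list medians. NADPH supply has the highest median at 0.73 and the other selenoproteins the lowest at -1.19, and every list has points on both sides of 0.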

How the data were processed

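The deposited table holds 1 signal value per gene and spleen, for which the authors divided each read count by the DESeq2 size factor of its library. Per the labels and methods, reads were aligned with STAR 2.5.3a to mm9 or to the NM-R genome and counted with HTSeq 0.10.0. NM-R genes then received the names of mouse homologues through biomaRt. The labels and the methods disagree on the library kit and the sequencer, and how strand was handled in counting is not given in the sources used here. In each library 100% of values were whole multiples of 1 step (tolerance 0.001), so whole reads were recovered, 7815326 to 18387599 per library.

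The test was limma 3.58.1 (R 4.3.3) on log2(normalized count + 1), with 1 mean per group over all 9 spleens, trended variance and 2-sided tests, and p-values were Benjamini-Hochberg adjusted over 12946 genes. Folds are ratios of group means, apart from those of Gpx6 and Gstm4, which come from summed reads. The labels call the samples biological replicates. edgeR 4.0.16 and DESeq2 1.42.0 on recovered reads, other scalings and filters, depth as a covariate, a replicate block and leaving out each spleen were alternatives. The scripts were tested on simulated data. Replicate numbers shared by mice and NM-Rs did not pair the samples.

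Values in every spleen are given, in each class, for the member of highest mean and those of highest and lowest fold change (all in classes of 2 or fewer), for the genes that the rule lists by name, and for the 5 with the smallest p between the cohorts. The rule for members reads symbols alone, but it and the gene lists were chosen with earlier results of these data known. Marker lists (erythroid, granulocyte, macrophage, B cell, T cell, megakaryocyte, smooth muscle, liver, pancreas) and 8 pathway lists were not tested as lists, and a gene on 2 pathway lists was kept on the first. Mouse sequences are from mm9 with the GENCODE vM1 models.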

Additional observations from a re-analysis of the deposited data

Results flagged for a closer look

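In the 6 NM-R spleens 3 of the 43 genes had a single spleen far from the rest, by a criterion that chance meets in about 1 of 20 groups. Gsr was 851 in lsNM-R 4, the one female, and 628 to 689 in the other 5. Gstm3 was 1445 in ssNM-R 2 and 788 to 1024 in the others. Gstm4 was 0.627 in lsNM-R 5, which is 1 read, and 0 in the others, so 1 read alone met the criterion.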

How the results depend on the processing

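Counts of members that passed against mice moved little. Under settings other than leaving out a spleen, 19 to 20 were higher and 14 to 16 lower in NM-Rs, and with 1 spleen left out 18 to 20 and 14 to 17. Of the 36 calls 32 held in every alternative that tested them, the others being Keap1, Prdx4, Txndc15 and Txnrd1. Gpx6, one of the 32, was not tested under a filter on a mean of at least 10. With DESeq2 and with DESeq2 on the NM-R spleens alone, 1 member was called between the cohorts in place of 0, and all other alternatives gave 0. Scaling to the same upper quartile moved the all-gene median of the log2 fold change from 0.0097 to 0.11, so fold changes under that scaling are to be read against this shift. Of the 7 members with no call, Gclm, Gpx1, Msrb3 and Txndc11 changed sign around 0 in some alternatives, and Glrx5, Gpx4 and Gpx8 did in none. Msrb3 was 0.0411 with the same upper quartile and 0.0374 with quantile normalization, and Txndc11 was 0.0851, 0.0483 and, with edgeR, 0.00481. Leaving out 1 spleen put the log2 fold change between -0.52 and 0.00034 for Gclm, between -0.47 and 0.068 for Gpx1, between 0.075 and 0.78 for Glrx5, between -0.21 and 0.077 for Msrb3 and between -0.085 and 0.0597 for Txndc11. The cause of these shifts was not tested. With the replicate block the calls were 36, 35, 32 and 0 in the 4 comparisons, as without it, at a consensus correlation of 0.025, and deviations of spleens with the same number correlated between -0.0045 and 0.010. No listed rows with at least 20 reads were identical to another in the NM-Rs, so counting such rows once gave no value. Depth limits Gpx6 and Gstm4, whose fold changes depend on the pseudocount.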
